A study of Mus musculus with 10 samples.

Results

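Primary B cells of mouse spleen carrying the guide labelled sgRNA-P1 were compared with mock B cells across all genes, after CRISPR interference at Pou2f1. The comparison used 4 of the 10 samples of the series and covered 56893 genes, of which 10062 reached 5 CPM (counts of reads scaled to a common library size) in the higher of the compared libraries and 7211 reached 20 CPM. Polyadenylated RNA was sequenced from both groups, and the genotype field of the labels reads Mock or sgRNA-P1, with no other allele or agent named. In every group of the series, replicates 1 and 2 differed by less than the noise of sampling reads, and their sum was counted as 1 sample. Not given in the sources at hand are mouse strain and age, the animals or cultures behind each library, the way the cells were selected, the delivery of dead Cas9, the treatment of the mock cells and the time for which the guide acted. The summed sgRNA-P1 library held 49066261 reads and the mock library 33842813. Each group was therefore 1 library, its differences lack a replicate check, and no p-value or standard error is given. Values in brackets are exact 95% intervals of a difference that cover counting error only. Size rules stand in for a test. The larger rule takes differences of 1.5-fold or more among genes at 5 CPM or more in the higher library. The smaller rule takes log2 fold changes of 0.32 or more in size, the ratio of a level 25% above another, among genes at 20 CPM or more. Values of B cells with sgRNA-P2, which share the mock library, and of T cells with sgRNA-P1 and their own mock are given beside some results.

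The product of Pou2f1 is Oct-1, a transcription factor of the POU family that is present in most cell types and binds the octamer ATGCAAAT in promoters of immunoglobulin, histone H2B and small nuclear RNA genes. B cells also hold the related factor Oct-2, encoded by Pou2f2, and the coactivator encoded by Pou2af1, which binds either factor on the octamer. In CRISPR interference a guide RNA brings catalytically dead Cas9, often fused to a repressor domain, to a promoter, where it lowers transcription without cutting DNA. Pou2f1 is transcribed from alternative promoters. The gene lies on the minus strand of chromosome 1, from 165692723 to 165830247 as the deposited table gives it.

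RefSeq on GRCm38.p6, a build other than that of the deposited coordinates, lists 3 Pou2f1 start sites on the minus strand. They are shown because the guide was directed at a promoter of this gene; the sources at hand give neither the guide's own sequence nor the start that each label refers to. Each window runs from 250 bases before to 50 bases after the start, and capitals mark CG dinucleotides. The windows are chr1:166002585-166002884 for start 1, chr1:165953022-165953321 for start 2 and chr1:165934899-165935198 for start 3.
Pou2f1 start 1: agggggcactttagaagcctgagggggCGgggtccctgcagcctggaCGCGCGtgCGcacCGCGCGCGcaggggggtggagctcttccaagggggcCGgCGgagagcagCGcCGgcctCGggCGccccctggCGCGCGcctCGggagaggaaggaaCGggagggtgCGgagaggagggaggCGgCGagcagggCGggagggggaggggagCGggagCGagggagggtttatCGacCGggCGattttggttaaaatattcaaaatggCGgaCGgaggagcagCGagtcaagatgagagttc
Pou2f1 start 2: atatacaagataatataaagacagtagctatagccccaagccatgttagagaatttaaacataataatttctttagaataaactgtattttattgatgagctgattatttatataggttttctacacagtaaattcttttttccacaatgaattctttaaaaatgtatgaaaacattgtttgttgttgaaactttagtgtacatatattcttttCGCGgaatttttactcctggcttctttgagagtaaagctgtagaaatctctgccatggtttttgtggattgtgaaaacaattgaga
Pou2f1 start 3: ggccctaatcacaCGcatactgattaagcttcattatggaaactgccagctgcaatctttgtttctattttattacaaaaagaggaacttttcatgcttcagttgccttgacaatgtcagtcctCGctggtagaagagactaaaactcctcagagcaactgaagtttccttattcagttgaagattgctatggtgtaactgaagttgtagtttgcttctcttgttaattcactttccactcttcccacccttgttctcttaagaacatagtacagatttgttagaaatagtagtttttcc
Start 1 had a GC content of 69.7% and 32 CG dinucleotides, against 28.7% and 2 for start 2 and 38% and 2 for start 3. The windows held 77, 12 and 16 sites of the form NGG, the motif that Cas9 of Streptococcus pyogenes needs beside its target, counting sites on either strand with room for a full target. Starts 2 and 3 lie 49563 and 67686 bases downstream of start 1. None of the windows held the octamer ATGCAAAT or its reverse complement ATTTGCAT.

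Pou2f1 was lower in the sgRNA-P1 library, at 91.1 CPM against 157 CPM in mock. The level left was 58.1% of mock, a log2 fold change of -0.78 [-0.87 to -0.70], and it was the sixth lowest of the 10062 genes. Beside it, the log2 fold change was -0.86 in B cells with sgRNA-P2 and -1.06 in T cells with sgRNA-P1. Since reads were counted over the gene as a whole, transcripts from different starts cannot be told apart. Cd247, a T cell gene of the opposite strand that overlaps the 3' end of Pou2f1, stood at 0.664 CPM in the sgRNA-P1 library and 0.414 CPM in mock, far below Pou2f1 in B cells. The 6 other expressed genes within 500 kb of Pou2f1 had log2 fold changes between -0.10 (Pogk) and 0.07 (Dcaf6), each with an interval that includes 0. Mpc2, a mitochondrial pyruvate carrier subunit, had 0.07, Rcsd1 0.03, Tada1 0.02 and Creg1 -0.00.

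The other Oct genes stayed near their mock level. Pou2f2 was at 361 CPM against 338 CPM, a log2 fold change of 0.10 [0.05 to 0.14], and Pou2af1 at 636 CPM against 621 CPM, 0.03 [-0.00 to 0.07]. Pou2f3, the epithelial member of the family, had no read in either library, where 3 reads would be 0.0622 and 0.0887 CPM. Of 11 genes whose products act with Oct-1, 6 were higher, 5 were lower, and none passed either size rule. Their median was 0.05, where that of all genes tested was -0.01. With the GC and length trend described below subtracted it was -0.01, with 5 higher and 6 lower. The largest differences among them were Nme1, a nucleoside diphosphate kinase gene, at 8.78 against 12.1 CPM (-0.46 [-0.75 to -0.18]), and Snapc3, a subunit of the complex that recruits polymerase to small nuclear RNA genes, at 52.7 against 42.9 CPM (0.30 [0.16 to 0.43]).

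Across the transcriptome the libraries were close. The quartiles of the log2 fold change were -0.10 and 0.09, and 65.1% of the 10062 genes lay within 1.1-fold. At 1.5-fold or more, 48 genes (0.477%) were higher and 26 (0.258%) lower with sgRNA-P1. Of these 74 genes (0.735%), 59 stood at 5 to 20 CPM, and 18 had an interval wholly past 1.5-fold. Predicted genes and pseudogenes, by the form of their symbols, made up 24 of the 48 higher and 10 of the 26 lower genes. Their share among all genes tested was not counted. By the smaller rule, 124 of 7211 genes (1.72%) were higher and 98 (1.36%) lower, 3.08% in all. With libraries scaled by total reads alone, this split was 87 higher and 136 lower. The larger rule took 28 genes (0.278%) with sgRNA-P2 in B cells and 11 (0.11%) with sgRNA-P1 in T cells, and the smaller rule 40 (0.557%) and 12 (0.167%).

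**Figure D1:**
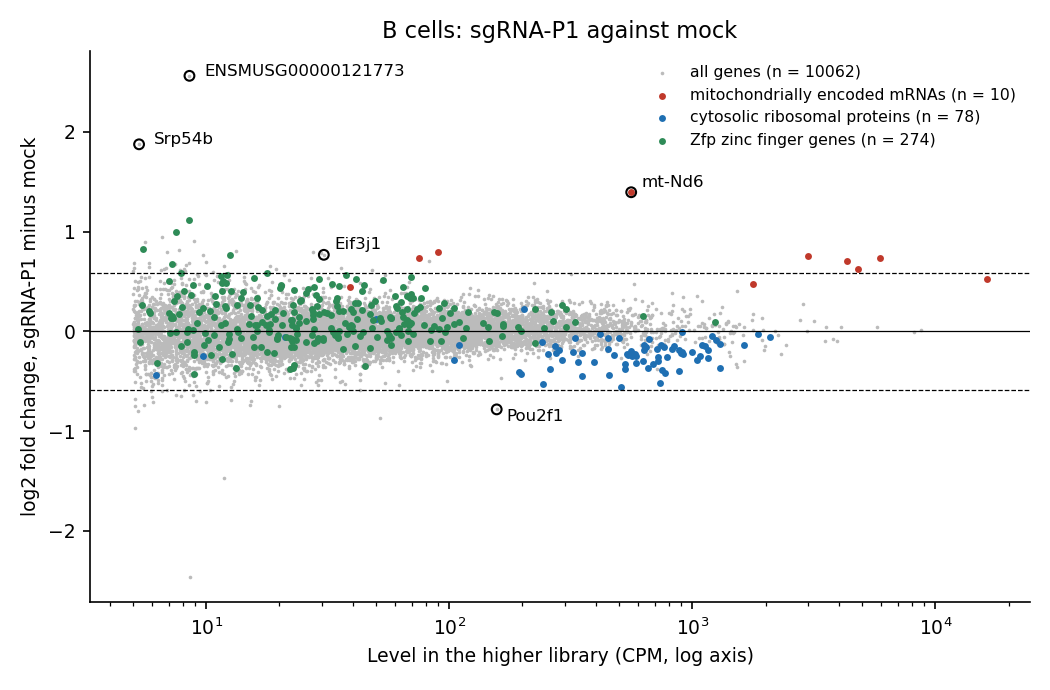
Each point is 1 of 10062 genes. The x axis is the level in the higher library (CPM, log axis) and the y axis the log2 fold change of sgRNA-P1 minus mock, with dashed lines at 1.5-fold. Mitochondrially encoded mRNAs lie above 0, most cytosolic ribosomal protein genes below it, and Pou2f1 at -0.78.

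The difference between the libraries followed the base composition of transcripts, and gene groups below differ in that composition. Across 9738 genes with a known transcript, Spearman's rho between GC content and the log2 fold change was -0.50, against -0.17 with sgRNA-P2 in B cells and -0.21 with sgRNA-P1 in T cells. These are descriptions over genes, which are not replicates. The genes were the same in each comparison, chosen by their level in the sgRNA-P1 and mock B cell libraries. Of the 10062 genes so chosen, 9139 also reached 5 CPM in the T cell comparison, so some T cell values rest on few reads. Of 5 equal groups by GC content, the lowest had a median log2 fold change of 0.12, with 83.3% of its genes higher, and the highest had a median of -0.08, with 22.6% higher. The lowest GC group held 37 of the genes past 1.5-fold higher and none of those past 1.5-fold lower. Transcript length went the other way, with a rho of 0.27 and medians from -0.09 in the shortest to 0.04 in the longest group. The part of GC content and length in each result was not tested. As an alternative, a smooth trend over both was subtracted from every gene, and the value left is given below as the value after the trend. After the trend 22 genes were 1.5-fold or more higher and 12 lower, 40 passed the smaller rule higher and 50 lower, and Pou2f1 stood at -0.89.

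**Figure D2:**
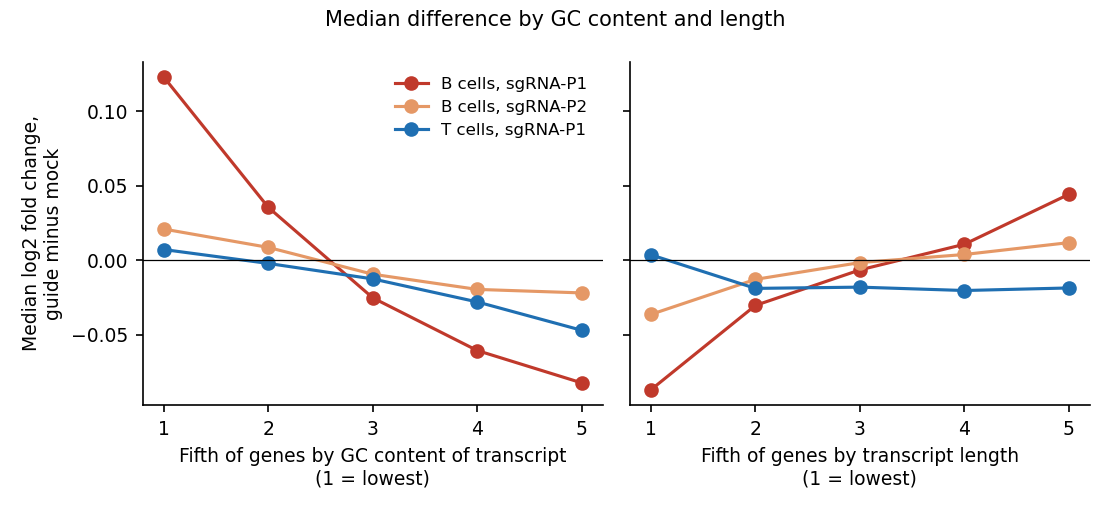
Median log2 fold change of guide minus mock (y axis) in 5 equal groups of genes by GC content (left) and by transcript length (right), for 3 comparisons. All comparisons use the genes at 5 CPM or more in the B cell comparison with sgRNA-P1. In B cells with sgRNA-P1 the medians run from 0.12 to -0.08 over GC content, a wider range than in the other comparisons shown.

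RNAs of the mitochondrial genome were higher in the sgRNA-P1 library. This small circular genome encodes 13 mRNAs for subunits of the respiratory chain and ATP synthase, with the ribosomal and transfer RNAs to translate them. All 10 of its mRNAs that reached 5 CPM were higher, 7 of them past the larger rule and all 10 past the smaller, where 0.477% and 1.72% of all genes were. Their median log2 fold change was 0.72, with a median GC content of 37.4%, and 0.44 after the trend. After the trend all 10 were still above 0. Of these 1 was past the larger rule and 8 past the smaller, among 22 and 40 higher genes in all. Summed over all 13 mRNAs, the level was 36845 CPM with sgRNA-P1 and 24048 CPM in mock, which is 153% of mock. Side by side, the median of the same 10 mRNAs was 0.20 with sgRNA-P2 in B cells and -0.04 with sgRNA-P1 in T cells.

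Among complex I subunits of this genome, mt-Nd6 was at 560 CPM against 213 CPM, the highest log2 fold change of any gene at 20 CPM or more (1.39 [1.34 to 1.45]). It is the only mRNA encoded on the other strand, and its last bases, from 13552 to 13565 on the mitochondrial genome, overlap the end of mt-Nd5. The sources at hand do not say whether the counting used strand, so reads of mt-Nd6 and of transcripts opposite to it may not be separated. mt-Nd2 was at 2994 against 1776 CPM (0.75), mt-Nd5 at 4309 against 2647 CPM (0.70) and mt-Nd1 at 4794 against 3106 CPM (0.63). mt-Nd4 was at 1768 against 1271 CPM (0.48), the smallest difference of the complex I mRNAs at 5 CPM or more, and 0.20 after the trend. In complex III, mt-Cytb was at 5893 against 3545 CPM (0.73). In complex IV, mt-Co1, the most abundant of these mRNAs, was at 16314 against 11359 CPM (0.52 [0.51 to 0.53]).

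mt-Co2 (90.2 against 51.9 CPM), mt-Atp6 (75.2 against 45.1 CPM) and mt-Co3 (39.2 against 28.8 CPM) had far fewer reads than mt-Co1, and their log2 fold changes were 0.80, 0.74 and 0.44. Each has a near-identical copy on the minus strand of chromosome 1, in a nuclear segment of mitochondrial origin. Of the 50-base windows of the transcript, 99.5% of those of mt-Atp6 were found in Gm10925 (24653055 to 24653732 in the deposited coordinates), 99.5% of those of mt-Co2 in Gm28661 (24653966 to 24654646) and 99.9% of those of mt-Co3 in Gm28437 (24652270 to 24653052). The first 60 bases of mt-Atp6 and Gm10925 in GENCODE M21 on GRCm38 show the likeness, with no mismatch over 678 aligned bases.
mt-Atp6: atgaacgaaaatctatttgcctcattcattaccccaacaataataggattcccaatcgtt
Gm10925: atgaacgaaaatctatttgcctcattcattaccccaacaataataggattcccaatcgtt
These copies were also higher. Gm10925 was at 82.7 against 50.8 CPM (0.70), Gm28661 at 35.9 against 23.1 CPM (0.64) and Gm28437 at 32.72 against 24.002 CPM (0.45). Gm28439, which holds 62.2% of the windows of mt-Nd4, was at 27.5 against 15.8 CPM (0.79). A short read from these stretches fits the mitochondrial gene and its copy, so the split between them is uncertain. Gm28661 and Gm28437 were also higher in T cells with sgRNA-P1, by 0.53 and 0.63, while mt-Co2 and mt-Co3 had 0.18 and 0.17 there.

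The mitochondrial ribosomal RNAs were higher by less. mt-Rnr2, the large subunit rRNA, was at 1521 against 1150 CPM (0.40 [0.38 to 0.43]), and mt-Rnr1, the small subunit rRNA, at 229 against 183 CPM (0.32 [0.26 to 0.39]). After the trend they were 0.13 and 0.01. The transfer RNA mt-Tp, encoded on the opposite strand beside the control region, was at 27.1 against 18.7 CPM (0.53). The share of all reads on mitochondrial genes was 3.79% with sgRNA-P1 and 2.54% in mock. That share is also used as a sign of cell and RNA quality, and whether quality differed between the libraries was not tested.

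Nuclear genes of the same respiratory complexes were mostly lower. Complex I takes electrons from NADH. Of its 37 nuclear subunit genes at 5 CPM or more, 31 were lower and 6 higher, where 52% of all genes were lower. Their median was -0.22, and -0.15 after the trend. Ndufs5 (3.01 against 5.23 CPM, -0.80 [-1.27 to -0.33]) and Ndufb9 (4.83 against 7.54 CPM, -0.64 [-1.02 to -0.27]) passed 1.5-fold lower, where 0.258% of all genes did. Both reached 5 CPM in mock only, so they passed the filter through the library where they were higher. Of 26 members at 20 CPM or more, 5 passed the smaller rule lower, where 1.36% of all genes did. After the trend 1 subunit gene was past 1.5-fold lower, and 2 of 25 passed the smaller rule, among 12 and 50 lower genes in all. The lowest at 20 CPM or more was Ndufa2, at 19.8 against 28.8 CPM (-0.54). Ndufaf8, an assembly factor of complex I, was at 5.39 against 8.13 CPM (-0.59, and -0.43 after the trend, below 1.5-fold), and 6 of 7 such factors were lower.

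All 13 genes of complexes II and III were lower, with a median of -0.21 and 8 intervals wholly below 0, where 15.6% of all genes had one, though none passed a size rule. After the trend the median was -0.09 and 12 of the 13 were below 0. Uqcrh and Cyc1, both needed to pass electrons to cytochrome c, were at 71.0 against 87.0 CPM (-0.29) and 63.0 against 76.5 CPM (-0.28). In complex IV, 9 of 11 nuclear subunit genes were lower (median -0.22, after the trend -0.08), and Cox7a2 (20.3 against 26.9 CPM, -0.40) and Cox4i1 (96.3 against 122 CPM, -0.34) passed the smaller rule. After the trend these were -0.26 and -0.16, and neither passed it. In ATP synthase, 16 of 17 genes were lower (median -0.13, after the trend -0.08), where 52% of all genes were. Of 16 at 20 CPM or more, 2 passed the smaller rule lower, where 1.36% of all genes did. After the trend 1 of 13 did, among 50 lower genes in all. Atp5f1e, the epsilon subunit, was at 38.0 against 54.4 CPM (-0.52 [-0.65 to -0.38]).

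Other mitochondrial groups were mixed. Of 20 genes of the TIM and TOM import complexes, 18 were lower (median -0.15, after the trend -0.13), where 52% of all genes were. Of 14 at 20 CPM or more, 2 passed the smaller rule lower, where 1.36% of all genes did. After the trend 1 of 14 did, among 50 lower genes in all. Tomm7, a small subunit of the outer-membrane pore, was at 18.1 against 25.2 CPM (-0.48). Tspo, which encodes the translocator protein of the outer membrane, was at 28.7 against 43.0 CPM (-0.58), the lowest after Pou2f1 among genes at 20 CPM or more that are not predicted genes. Lars2, the mitochondrial leucyl-tRNA synthetase, was at 69.2 against 98.0 CPM (-0.50). The 76 mitochondrial ribosomal protein genes had a median of -0.06, and -0.01 after the trend, with Mrpl55 at 6.06 against 9.93 CPM (-0.71, and -0.58 after the trend, below 1.5-fold). The 25 genes that transcribe and maintain mitochondrial DNA were split 14 higher to 11 lower, with a median of 0.05, and 0.00 after the trend. Among them Pnpt1, an RNA-degrading enzyme of mitochondria, was at 79.0 against 65.1 CPM (0.28), and the termination factor gene Mterf3 at 50.4 against 41.9 CPM (0.27).

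**Figure D3:**
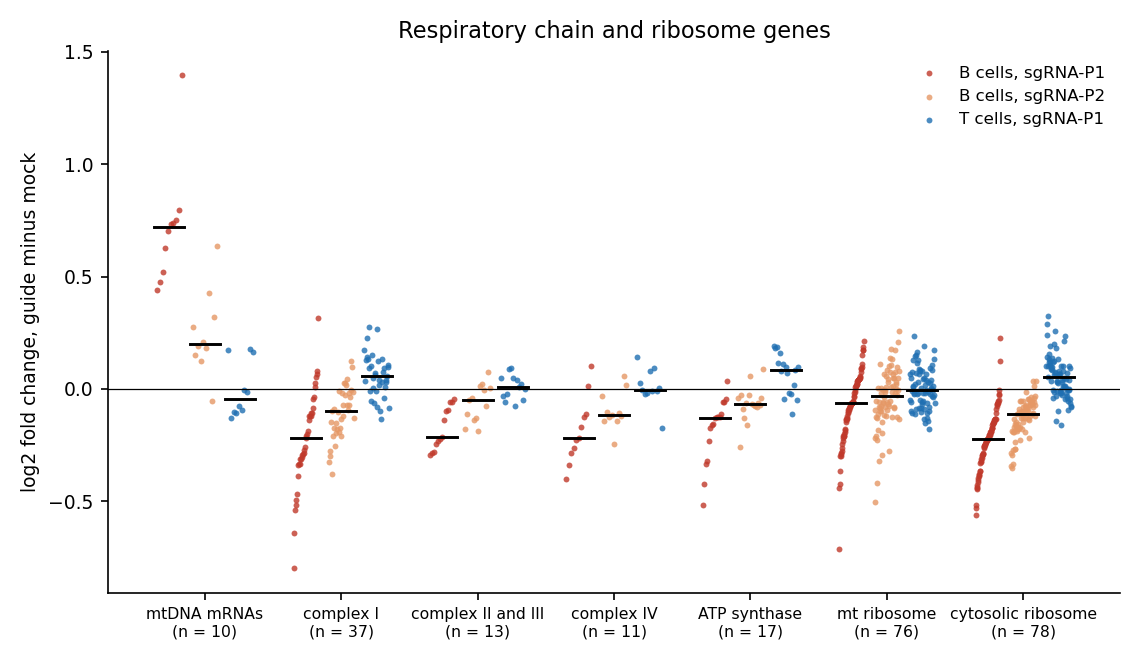
Each point is 1 gene, and the y axis is its log2 fold change of guide minus mock; black bars are medians. The mitochondrially encoded mRNAs (mtDNA mRNAs) have a median of 0.72 in B cells with sgRNA-P1, 0.20 with sgRNA-P2 and -0.04 in T cells with sgRNA-P1, and nuclear complex I genes -0.22, -0.10 and 0.06. The comparisons in B cells share the mock library.

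Cytosolic ribosomal protein genes were lower as a group. They encode the proteins of the small and large ribosomal subunits, and many of their mRNAs begin with a run of pyrimidines through which translation is regulated. Of 78 genes at 5 CPM or more, 76 were lower, and 72 had an interval wholly below 0, where 15.6% of all genes did. At 20 CPM or more, 17 of 76 passed the smaller rule lower, against 1.36% of all genes. After the trend 67 of the 78 were below 0. Of the 76, 11 then passed the smaller rule lower and 1 higher, among 50 and 40 genes in all. The median was -0.22, and -0.15 after the trend. Summed over all 85 listed genes, the level was 43830 CPM, which is 86.8% of mock. The 78 genes had a median of -0.11 with sgRNA-P2 in B cells, and 0.05 with sgRNA-P1 in T cells.

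The start regions of the 6 lowest ribosomal protein genes with a RefSeq promoter window on GRCm38.p6 are shown for the pyrimidine run, from 20 bases before the annotated start to 20 bases from it on, at the first start listed for each gene. Capitals mark the longest run of C and T that touches the first 5 transcribed bases.
Rpl37a: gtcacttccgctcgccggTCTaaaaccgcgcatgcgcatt
Rps21: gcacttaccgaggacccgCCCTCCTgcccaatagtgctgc
Rps19: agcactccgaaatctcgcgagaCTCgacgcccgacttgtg
Rpl39: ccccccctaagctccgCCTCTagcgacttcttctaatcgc
Rps10: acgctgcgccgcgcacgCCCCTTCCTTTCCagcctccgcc
Rpl38: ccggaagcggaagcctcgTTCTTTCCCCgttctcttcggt
The windows are chr1:72711240-72711279 (+) for Rpl37a, chr2:180257359-180257398 (+) for Rps21, chr7:24884572-24884611 (+) for Rps19, chrX:37085203-37085242 (-) for Rpl39, chr17:27635225-27635264 (-) for Rps10 and chr11:114668560-114668599 (+) for Rpl38. A run of 6 or more was found in 26 of 57 matched ribosomal protein genes (45.6%), against 15.1% of 7630 matched genes. Ribosomal protein genes with such a run had a median log2 fold change of -0.23 and those without one -0.21. A run here describes the letters at an annotated start and not a measured transcript end.

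Rpl37a was at 346 against 510 CPM (-0.56 [-0.60 to -0.51]), Rps21 at 169 against 244 CPM (-0.53 [-0.59 to -0.47]) and Rps19 at 516 against 739 CPM (-0.52 [-0.55 to -0.48]). After the trend these were -0.37, -0.38 and -0.48. Rps29 was at 335 against 454 CPM (-0.44), and in T cells with sgRNA-P1 it passed the smaller rule in the other direction (0.32). The exceptions were Rpl35, at 204 against 174 CPM (0.23), and Rpl6l, at 50.1 against 45.9 CPM (0.13). Ribosomal protein genes have many processed pseudogenes that can share their reads. Rpl39-ps, Rps10-ps1 and Rps19-ps6 were 1.5-fold or more lower, at 3.05 against 5.11, 9.0 against 15.1 and 3.71 against 6.06 CPM. They were picked after their values were seen, and other such pseudogenes were not counted. Rpl39-ps and Rps19-ps6 reached 5 CPM in mock only, the library where they were higher.

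Other translation genes were nearer to mock. The 53 initiation factor genes had a median of -0.03, and 23 of them were higher. Eif3j1, a subunit of the initiation factor that holds the small ribosomal subunit, was at 30.5 against 17.9 CPM (0.77 [0.58 to 0.97]), and 0.67 after the trend. Its copy Eif3j2, which shares 90.8% of its 50-base windows with Eif3j1, was at 13.6 against 13.5 CPM (0.01), so the split of reads between them is uncertain. Eif6, which keeps ribosomal subunits apart, was at 24.7 against 33.9 CPM (-0.46). Of 8 elongation factor genes 6 were lower, by little (median -0.09). Ribosome biogenesis genes had a median of -0.02, and 0.02 after the trend, with Npm1 and Ncl, which encode abundant nucleolar proteins, at 0.21 and 0.16. Sec61g, a subunit of the channel into the endoplasmic reticulum, was at 17.0 against 24.6 CPM (-0.54), and -0.56 after the trend.

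Genes of protein turnover and antigen presentation were slightly lower. Of all genes tested, 52% were lower. Of 37 proteasome genes 30 were lower, with a median of -0.10. Of 35 at 20 CPM or more, 1 passed the smaller rule lower, where 1.36% of all genes did. After the trend the median was -0.06 and none passed it. The inducible subunits Psmb8 (91.2 against 113 CPM), Psmb9 (98.4 against 120 CPM) and Psmb10 (56.98 against 70.35 CPM) had log2 fold changes of -0.30, -0.29 and -0.30, and the constitutive subunits Psmb5 and Psmb4 -0.40 and -0.33. Of 17 genes of class I presentation, a list that also holds the inducible proteasome subunits, 14 were lower (median -0.19, after the trend -0.10) and none passed a size rule. The heavy chain genes H2-K1 (1982 against 2316 CPM) and H2-D1 (1730 against 1975 CPM) stood at -0.23 and -0.19, while B2m, their shared light chain, was at 1286 against 1236 CPM (0.06). Class II genes had a median of -0.09, and -0.01 after the trend. H2-Q10, a class I gene with close relatives, was at 5.58 against 9.04 CPM (-0.70), and it was -0.95 with sgRNA-P2 in B cells and -1.78 with sgRNA-P1 in T cells. Of its 50-base windows 14.7% were found in H2-Q7, which had -0.00. In the cytosolic heat shock list 10 of 14 genes were higher, with Hsp90aa1, the inducible Hsp90 chaperone, at 444 against 362 CPM (0.30).

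Genes of the Zfp series were higher as a group. Most encode proteins with arrays of C2H2 zinc fingers, many of them with a KRAB domain that recruits corepressors to transposable elements. Of 415 such genes counted, 274 reached 5 CPM, 193 of which were higher and 81 lower, where 52% of all genes were lower. The median was 0.11, and 0.05 after the trend. At 20 CPM or more, 26 of 175 passed the smaller rule higher and 4 lower, where 1.72% and 1.36% of all genes were. After the trend 5 of 172 were higher by that margin and 2 lower, among 40 and 50 genes in all. The median of the list was 0.02 with sgRNA-P2 in B cells and -0.02 with sgRNA-P1 in T cells.

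Within the list, the genes past the smaller rule higher were mostly low in GC. Among genes in the lowest of the 5 GC groups, 22 of 86 Zfp genes at 20 CPM or more passed it higher (25.6%), against 86 of 1389 other genes (6.19%). In the next group the share was 1 of 27 Zfp genes (3.7%) and 0.498% of other genes, and in the other 3 groups it was 0 of 59 Zfp genes and 0 of 4082 other genes. The chromosomes differed too. The median was 0.40 for 29 Zfp genes on chromosome 13, of which 28 were higher, and 0.24 for 38 on chromosome 17, of which 32 were higher. It was 0.00 for 66 on chromosome 7, which holds the most, and -0.09 for 8 on chromosome 15. The median GC content of these Zfp genes was 39.1% on chromosome 13, 39.5% on chromosome 17, 48.0% on chromosome 7 and 50.4% on chromosome 15. All genes of chromosomes 13 and 17 had medians of 0.05 and -0.03.

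**Figure D4:**
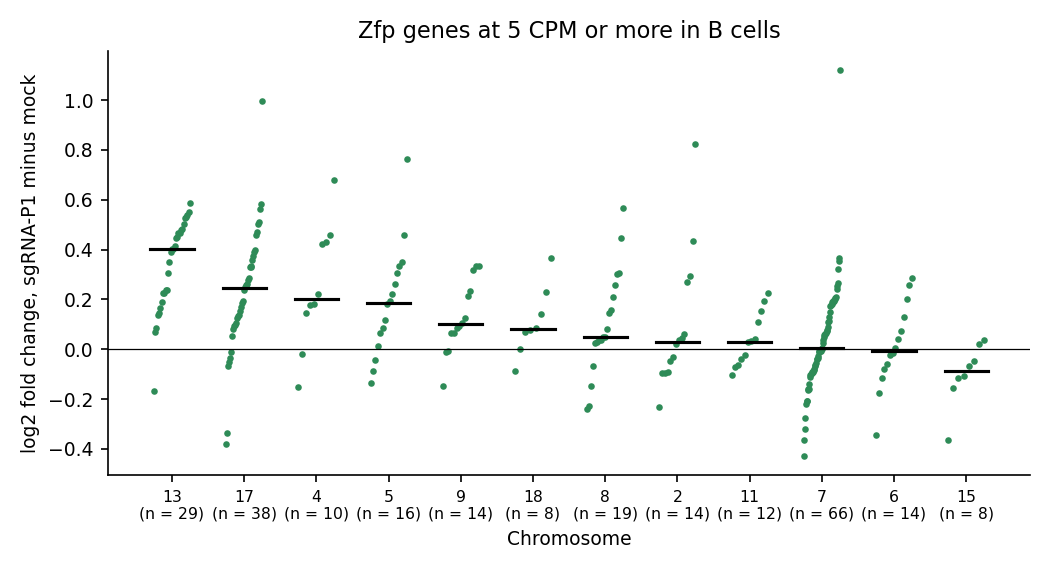
Each point is 1 Zfp gene at 5 CPM or more and the y axis is its log2 fold change of sgRNA-P1 minus mock in B cells, for chromosomes (x axis) with 8 or more such genes; black bars are medians. The medians run from 0.40 on chromosome 13 to -0.09 on chromosome 15.

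On chromosome 13, Zfp729b was at 69.8 against 48.0 CPM (0.54), Zfp953 at 29.0 against 20.1 CPM (0.53) and Zfp729a at 64.6 against 47.4 CPM (0.45). On chromosome 17, Zfp944 was at 53.3 against 37.3 CPM (0.51), Zfp677 at 32.8 against 23.6 CPM (0.47) and Zfp943 at 69.7 against 53.9 CPM (0.37). Zfp54, on the same chromosome, had a low level and was at 7.53 against 3.75 CPM (0.997 [0.59 to 1.45]). Zfp975 on chromosome 7 was at 8.53 against 3.90 CPM (1.12 [0.72 to 1.55]), and 0.95 after the trend. Zfp930 on chromosome 8 was at 37.5 against 25.3 CPM (0.57), and 0.39 after the trend. The 4 members past the smaller rule lower included Zfp213 (18.2 against 22.9 CPM) and Zfp444 (17.7 against 22.8 CPM), with GC contents of 59.5% and 52.0%. Neighbouring Zfp genes arose by duplication and their sequences are alike, so the counts of single members are uncertain.

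Among chromatin and chromosome-structure genes, which have long transcripts, some lists were slightly higher. Of all genes tested, 52% were lower. Of 34 chromatin methyltransferase and demethylase genes 20 were higher and 14 lower (median 0.03, after the trend 0.02), none past a size rule. Of 29 chromatin remodeller genes 26 were higher (median 0.07, after the trend 0.06). Atrx, which deposits histone H3.3 with a partner, was at 623 against 504 CPM (0.31, and 0.14 after the trend). Of 18 cohesin, condensin and related genes 16 were higher (median 0.17, after the trend 0.07). Smc4, a core condensin subunit, was at 252 against 191 CPM (0.40 [0.34 to 0.47]) and passed the smaller rule, the only one of its list. After the trend it was 0.26 and did not pass. Nipbl, the cohesin loader, was at 449 against 373 CPM (0.27), and Stag2 at 392.5 against 327 CPM (0.26). Ncapd2 went the other way, at 50.9 against 57.1 CPM (-0.17). The DNA replication list had a median of -0.02, and Mki67, a marker of cycling cells, was at 24.8 against 21.7 CPM (0.19 [0.00 to 0.38]). Cdkn2d, an inhibitor of cyclin D kinases, was at 25.6 against 37.1 CPM (-0.53).

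The B cell programme was nearly level. Of 21 identity genes, each above 5 CPM in either library, 15 were higher and 6 lower, where 52% of all genes were lower. None passed a size rule. Cd74 was at 8146 against 8197 CPM (-0.01), Ighm at 5773 against 5605 CPM (0.04) and Pax5, the factor that keeps B cell identity, at 1551 against 1477 CPM (0.07). Ebf1, an early B lineage factor, was the highest of them, at 367 against 322 CPM (0.19). Genes of B cell receptor signalling had a median of -0.00 over 32 genes, and lineage transcription factors 0.06 over 23, with Mef2c highest at 833 against 695 CPM (0.26, and 0.13 after the trend). Of 12 plasma cell genes 9 were lower, with Sdc1, the surface marker of these cells, at 15.5 against 19.7 CPM (-0.35). The early activation gene Cd69 was at 710 against 607 CPM (0.23), and 0.01 after the trend.

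Genes with octamers described in their promoters, the kind of site Oct-1 binds, were close to mock. The 9 listed had a median of 0.06, with 6 higher and 3 lower, none past a size rule. Ms4a1, which encodes CD20, was at 1780 against 1575 CPM (0.18), Cd36 at 81.3 against 72.6 CPM (0.16) and Igkc, the kappa constant gene, at 1938 against 1771 CPM (0.13). Cd79b, part of the B cell receptor, was at 1163 against 1265 CPM (-0.12). Heavy chain variable segments, whose promoters carry octamers, had a median of -0.03 over 64 segments at 5 CPM or more, and kappa variable segments -0.02 over 66. After the trend both medians changed sign, to 0.09 and 0.10, with 43 of 64 and 43 of 66 segments higher. Ighv14-2 was the lowest of them, at 9.46 against 15.3 CPM (-0.69, and -0.55 after the trend, below 1.5-fold), and Ighv1-85 the highest, at 5.02 against 3.22 CPM (0.63). Only 5 of 66 replication-dependent histone genes reached 5 CPM, in RNA selected for poly(A) tails that most of them lack. Of these 4 were lower and 1 higher. The linker histone gene H1f2, the most abundant, was at 58.7 against 69.1 CPM (-0.24 [-0.35 to -0.12]), while H2bc8, H2bc4, H2bc21 and H2ac25 had -0.18, 0.16, -0.08 and -0.07 with intervals that include 0.

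A search of RefSeq promoter windows for ATGCAAAT or ATTTGCAT, from 250 bases before to 50 bases after each start, found an octamer in 124 of 7630 matched genes at 5 CPM or more (1.63%). Of all 32851 windows, 1.74% held one. Genes with an octamer had a median log2 fold change of -0.01, the same as all matched genes. At 20 CPM or more, 3 of 89 such genes passed the smaller rule in either direction (3.37%), against 2.57% of all matched genes. Their octamers are shown in capitals with 16 bases on either side, read along the gene's strand.
D130040H23Rik: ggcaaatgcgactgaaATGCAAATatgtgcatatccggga
Sec61g: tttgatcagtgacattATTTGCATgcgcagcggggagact
Slc35a2: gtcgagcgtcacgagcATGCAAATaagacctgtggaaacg
D130040H23Rik (chr8:69270895-69270934, +) was higher, at 46.9 against 35.6 CPM (0.40). Sec61g (chr11:16508460-16508499, -) was lower, as given above, and its octamer lies at the annotated start. Slc35a2 (chrX:7884075-7884114, +), a UDP-galactose transporter gene, was at 20.9 against 26.5 CPM (-0.34, and -0.28 after the trend, short of the rule). A matching letter string is no measured binding site.

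**Figure D5:**
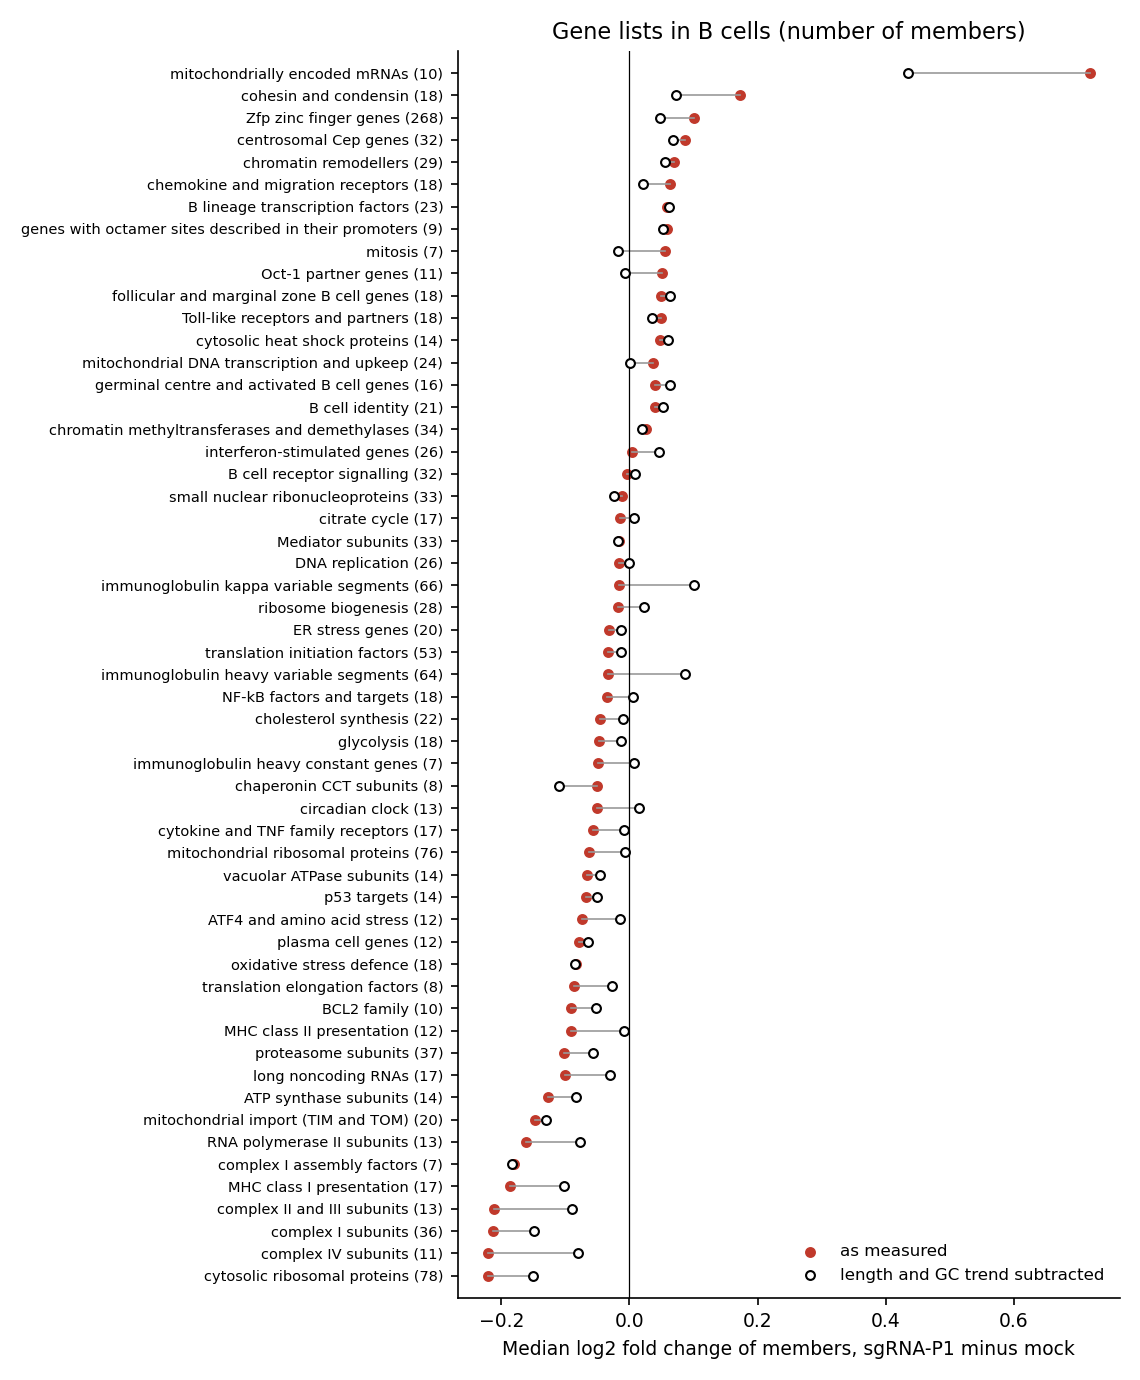
Median log2 fold change of sgRNA-P1 minus mock (x axis) for gene lists with 5 or more members at 5 CPM or more, as measured (filled) and with the length and GC trend subtracted (open); the number of members is in brackets. Mitochondrially encoded mRNAs are highest under both (0.72 and 0.44), and cytosolic ribosomal protein genes are lowest as measured (-0.22 and -0.15).

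Genes with low counts or close copies gave the widest single differences. ENSMUSG00000121773, a gene without a symbol, was at 8.53 against 1.42 CPM (2.56 [1.97 to 3.26]), and had -0.10 with sgRNA-P2 in B cells and 0.61 with sgRNA-P1 in T cells. Srp54b, one of 3 genes for the signal recognition particle subunit that binds signal peptides, was at 5.29 against 1.42 CPM (1.87 [1.26 to 2.59]), and 3.24 in T cells. Srp54a and Srp54c were at 5.39 against 5.29 CPM (0.03) and 23.4 against 22.3 CPM (0.07). Of the 50-base windows of Srp54b, 92.9% were found in Srp54a and 93.7% in Srp54c, so the counts of Srp54b are uncertain. The lowest values of all were those of the predicted gene Gm2058, at 1.54 against 8.57 CPM (-2.47), and the pseudogene Hspd1-ps3, at 4.25 against 11.8 CPM (-1.47). With the same guide in T cells they had 0.31 and 1.51, and with sgRNA-P2 in B cells, which share the mock library, -2.14 and 0.26. Trp53rkb, at 2.61 against 5.11 CPM (-0.96), Actr3b, at 3.30 against 5.53 CPM (-0.74), and the tubulin-folding cofactor gene Tbcc, at 7.84 against 12.7 CPM (-0.69), were also past 1.5-fold lower, though Tbcc was not after the trend (-0.53). Depdc1a, at 5.58 against 2.99 CPM (0.89), and the membrane glycoprotein gene Gpm6b, at 6.58 against 3.399 CPM (0.94), were past 1.5-fold higher. At 20 CPM or more, the set of largest differences also held Smim10l1 (20.9 against 14.1 CPM, 0.56), the joining segment Igkj3 (54.3 against 36.6 CPM, 0.57) and 9930111J21Rik2 (318 against 213 CPM, 0.57). On the lower side it held Mir5107 (42.7 against 62.1 CPM, -0.54) and Dynll2, a dynein light chain gene (19.9 against 28.3 CPM, -0.51). Mir5107 lies within Cd74, and Igkj3 within Gm30211, in the deposited coordinates, so their reads may belong to the longer gene.

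T cells with sgRNA-P1 and their mock share no library with the B cell comparison. Over 6468 genes at 20 CPM or more in both cell types, Pearson's r of the log2 fold changes was -0.03, a description over genes. Among them 181 passed the smaller rule in B cells and 9 in T cells. Pou2f1, Gm28437 and Gm28661 were past it in the same direction in both, and Gm4202 (-0.87 in B cells, 1.02 in T cells) and Rps29 in opposite directions. Malat1, a nuclear long noncoding RNA, was at 2859 against 2363 CPM in B cells with sgRNA-P1 (0.27, and 0.17 after the trend), with 0.37 for sgRNA-P2 and 0.43 in T cells.

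Markers of other cell types were mostly scarce. Of 19 T cell markers only Lck reached 5 CPM, at 45.2 against 46.1 CPM, Cd3e had no read with sgRNA-P1 and 0.0887 CPM in mock, and the summed list was 56.1 against 56.0 CPM. Natural killer cell markers summed to 8.69 against 8.22 CPM, macrophage and monocyte markers to 32.2 against 29.3 CPM and neutrophil markers to 1.06 against 1.24 CPM. Dendritic cell markers summed to 27.3 against 32.6 CPM, most of it Bst2, an interferon-induced gene that B cells also express. Erythroid and platelet markers summed to 11.1 against 12.4 CPM. Stromal and endothelial markers summed to 349 against 334 CPM, of which Pecam1 gave 346 and 332 CPM, and Col3a1, Dcn, Lum and Kdr had no read. The summed levels of these lists were 1.06 to 349 CPM with sgRNA-P1 and 1.24 to 334 CPM in mock, and no marker at 5 CPM or more passed a size rule.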

How the data were processed

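Polyadenylated RNA was sequenced from mouse spleen B cells (sgRNA-P1 and mock, the comparison here; sgRNA-P2 beside it) and T cells (sgRNA-P1 and mock). The deposited table holds whole-number counts of reads for each gene in 10 columns, 1 per sample. HISAT2, featureCounts and the builds hg38 and mm39 are named in the submitters' processing notes. The sources at hand do not give tool versions, the annotation release, the strand setting or the treatment of reads with several matches, so counts of genes with close copies are uncertain.

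In each group, the counts of all genes with reads (100%) matched 1 library divided in a fixed proportion, within a tolerance of 1 read. Between columns, genes with at least 20 reads had a mean chi-square of 0.00229 to 0.00283. Columns were summed, leaving 1 library per group of 28118839 to 71858511 reads and no test. Nothing in the labels says that the columns came from separate animals or cultures. The sums were scaled with TMM factors from 5 libraries (edgeR 4.0.16, R 4.3.3; 0.982 to 1.01), and log2 fold changes were taken after adding 1 read. Among genes under 10 reads, 72.0 to 74.8% of summed totals were odd, and so even after adding 1 read. That read was assumed lost when the columns were rounded down. Counting both reads of a pair gives even totals, so exact conditional intervals used reads divided by 2. Intervals and the floor of 3 reads cover counting error only, since the labels name no molecular identifiers. Of 56893 symbols, 48826 were found in GENCODE M21 on GRCm38 and 96 more through RefSeq synonyms, and these gave GC content and length. The trend over both was a loess fit of span 0.3. The calculation was tested on simulated data.

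The comparison and the gene lists were chosen with earlier results of these data known. The rule for named genes took the Oct genes, the 12 highest and 12 lowest log2 fold changes at 20 CPM and the 8 highest and 8 lowest at 5 CPM without predicted genes and pseudogenes, up to 5 members per list with the largest difference, expressed genes within 500 kb of Pou2f1, the Srp54 genes and H2-Q10. Predicted genes and pseudogenes were left out by the form of their symbols, which did not catch 9930111J21Rik2 and ENSMUSG00000121773. Other genes named were chosen after their values were seen: mt-Co1, mt-Co3, mt-Nd4, Gm10925, Gm28439, Gm28661, Gm28437, Gm2058, Hspd1-ps3, Gm4202, Rpl35, Rpl6l, Rpl38, Rps10, the ribosomal protein pseudogenes, Eif3j2, B2m, H2-D1, H2-Q7, Cd247, Cd3e and further markers, Cd74, Ighm, Pax5, Ncapd2, D130040H23Rik, Slc35a2 and the Zfp genes named by chromosome. The alternatives tried were other scalings, filters on low values, a prior of 5 reads, the trend subtracted and single columns.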

Additional observations from a re-analysis of the deposited data

How the results depend on the processing

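With 1 library per group no replicate error can be had, and depth limits what is seen at low levels: 3 reads are 0.0622 CPM with sgRNA-P1 and 0.0887 CPM in mock. No paired analysis was possible because the columns of a group are 1 divided library, so the result comes from no test and a replicate block has nothing to fit. Pou2f1 kept its direction under every alternative run, as did each named gene with a log2 fold change of 0.32 or more in size under the alternatives that gave it a value. Most alternatives could hardly have turned these signs. Filters leave the value of a single gene as it is, single columns repeat the same library, and scalings shifted all genes alike by little. The trend differs between genes and could have changed a sign. List medians near 0 did not all keep their sign. With the trend subtracted 11 of 55 list medians changed sign, each of them at most 0.06 in size before. Among them were Oct-1 partner genes, mitosis genes and the heavy and kappa variable segments. Under each other setting at most 1 changed sign. By the smaller rule, the split of higher and lower genes also turned with total reads (87 and 136). The log2 fold change of Pou2f1 was -0.89 with the length and GC trend subtracted, and -0.77 with either column of each group alone. The count of genes 1.5-fold or more higher was 305 at a minimum of 1 CPM, 13 at 20 CPM, 2974 with no filter on low counts and 22 with the trend subtracted. The count lower was 260, 2, 3246 and 12 under the same settings. The counts by the smaller size rule were 957 higher and 906 lower at 1 CPM, 5753 and 4931 with no filter, and 40 and 50 with the trend subtracted. Of the genes past 1.5-fold, 20 higher and 11 lower were past it before and after the trend. With single columns the 1.5-fold counts were 49 to 49 higher and 23 to 25 lower. Those by the smaller rule were 140 to 141 higher and 87 to 89 lower. Because the columns of a group are 1 divided library, single columns were bound to give close values. They are no check on the results. Of 612 list medians under the alternatives 603 moved by less than 0.1. No other scaling moved the median of all genes by over 0.1, the furthest being -0.03 with total reads. The trend check was void for histone genes, none of which has a GC value.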
